A study of Mus musculus with 15 samples.

Results

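Islets of 8-week-old NOD mice were compared with islets of 4-week-old NOD mice, the earlier interval of a time course with 5 ages between 4 and 12 weeks. The comparison took the 6 libraries whose labels give these ages, 3 mice at each, out of 15 libraries in the series, 3 at each of 5 ages. All animals were untreated NOD females, an inbred strain in which autoimmune diabetes arises without any manipulation, so the groups differed in age and shared the genotype, the sex and the absence of treatment. Whether the ages were isolated or sequenced together is not given in the sources used here. The islets, the clusters of hormone-secreting cells of the pancreas, were freed with collagenase and picked by hand, and each library was made from polyadenylated RNA of a different mouse, so a library contains RNA of endocrine cells and of whatever else adhered to the islets, and no mouse was followed over time. The study asked how the islet transcriptome changes before diabetes appears.

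In young rodents beta cells still divide, and the rate of division falls as the animals grow past weaning. In NOD females, lymphocytes and myeloid cells gather around and later within the islets during the following weeks, a process called insulitis. The infiltrate can become organised like lymphoid tissue, with B-cell areas and specialised vessels through which lymphocytes enter.

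The counts summed to between 25850117 and 30120959 per library at 4 weeks and between 26955671 and 29113274 at 8 weeks, and 16554 genes were tested. Levels are given below in CPM, counts scaled to the effective library size, where 3 counts corresponded to 0.107 to 0.128 CPM in these 6 libraries. The transcripts of 5 hormone genes (Ins1, Ins2, Gcg, Sst and Ppy) made up 46.8%, 48.4% and 48.4% of the deposited TPM (transcript levels scaled by transcript length and library) in 4-week mice 1 to 3, and 47.7%, 40.9% and 40.9% in 8-week mice 1 to 3, so the labelled tissue was present in every library. In leukocyte content 1 mouse of each age stood apart. Cd3e, a subunit of the T-cell receptor complex, was at 5.75, 0.498 and 0.0961 TPM in 4-week mice 1 to 3 and at 1.01, 23 and 31.8 TPM in 8-week mice 1 to 3, and Csf1r, the receptor that maintains macrophages, was at 13.6, 6.11 and 4.15 against 7.30, 23.3 and 29.5 TPM. The 4-week mouse 1 therefore had more of both transcripts than the 8-week mouse 1. Results that turn on these animals are given below with the counts without them, and in whole-islet RNA fewer cells of a type and less RNA per cell cannot be told apart.

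With edgeR's quasi-likelihood test and Benjamini-Hochberg adjustment, 695 genes (4.2% of those tested) differed between 8 and 4 weeks at an adjusted p under 0.05, of which 308 (1.86%) were higher and 387 (2.34%) lower in 8-week-old mice. Among called genes the median log2 fold change was 1.78 for those that were higher and -0.62 for those that were lower. These 2 medians describe genes picked by the test itself, some with few counts at 4 weeks. The median over all genes tested was -0.0014. At the threshold of a 1.5-fold change with an unadjusted p under 0.05, 2098 DEGs (12.7%) were counted, 1599 upregulated (9.66%) and 499 downregulated (3.01%). The values of the 3 mice of an age did not overlap with those of the other age in 1874 genes (11.3%) that were higher at 8 weeks and 2787 (16.8%) that were lower. The 8-week mouse 1 had the lowest value of its age in 222 of the 308 genes that were higher (72.1%), against 36.8% of all genes tested. Without it 1963 genes were called, 1375 of them higher, and without both it and the 4-week mouse 1, a setting chosen after seeing the data, 2037 were called, 1576 of them higher. Leaving out the 4-week mouse 2 or 3, or the 8-week mouse 2 or 3, left 92, 46, 99 and 204 calls.

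**Figure D1:**
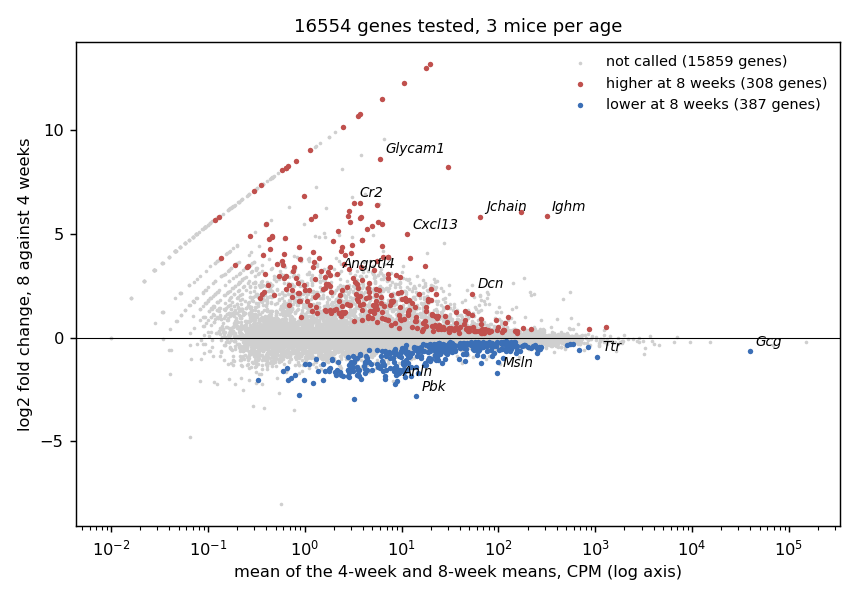
Log2 fold change of 8 against 4 weeks (y axis) for each of 16554 genes against the mean of the levels at the 2 ages in CPM (x axis, log axis), with the 308 genes called higher in red, the 387 called lower in blue and the others in grey. The genes called higher reach far larger fold changes than those called lower, and points on straight lines at the upper left are genes without a count at 4 weeks, whose fitted value depends on the prior count and is no measured size.

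Many genes of mitosis fell from 4 to 8 weeks. Of 42 mitosis genes, all tested, 22 were called lower and 0 higher, where 2.34% of all genes were called lower, and the median log2 fold change was -1.21. Pbk, a mitotic kinase (chr14:65805837-65817822), was at 21, 26.2 and 27.3 CPM in the 4-week mice and at 3.06, 3.99 and 3.50 CPM in the 8-week mice, 7.05-fold lower (log2 fold change -2.82, SE 0.25, adjusted p = 0.000454). Anln, an actin-binding protein of the cleavage furrow (chr9:22331214-22389206), was at 12.6, 16.3 and 14.9 against 3.14, 3.57 and 3.50 CPM (log2 fold change -2.10, SE 0.19, adjusted p = 0.000454). Ect2, the exchange factor that starts the contractile ring (chr3:27097222-27153878), was at 16.2, 17 and 18.2 against 4.30, 4.24 and 5.18 CPM (log2 fold change -1.90, SE 0.17, adjusted p = 0.000454). In all 3 genes every 8-week mouse lay below every 4-week mouse, the mice of an age lay close together, and the call held under all 16 alternatives. Foxm1, the transcription factor that drives many mitotic genes, fell from 14.9, 16.4 and 16.0 to 3.03, 6.99 and 6.21 CPM (log2 fold change -1.54, SE 0.28, adjusted p = 0.0159, over the alternatives 1.4e-05 to 0.086). Cenpf and Cenpe of the kinetochore, Prc1 of the central spindle, Hmmr, Ttk, Nuf2, Tpx2, Kif20a, the cyclin-dependent kinase Cdk1 and the cyclins Ccna2, Ccnb1 and Ccnb2 were also called lower, with log2 fold changes from -1.87 for Cenpf to -1.31 for Kif20a.

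Other mitotic genes missed the threshold, and there the 8-week mice were far apart. Mki67, the proliferation antigen Ki-67, was at 48.4, 55.4 and 61.1 CPM at 4 weeks and at 9.27, 32.7 and 35.4 CPM at 8 weeks (log2 fold change -1.09, SE 0.41, adjusted p = 0.122), with no overlap between the ages but a gap between 8-week mouse 1 and the other two. Top2a, Plk1, Aurka and Kif11 had log2 fold changes of -1.21, -1.37, -0.95 and -1.17 and adjusted p from 0.0542 to 0.105. Melk and Mybl2 overlapped between the ages, with 8-week mouse 3 above every 4-week mouse in both. In 37 of the 42 mitosis genes the ages did not overlap and 8 weeks was lower, where 16.8% of all genes showed this, and the 8-week mouse 1 had the lowest value of its age in 40. The summed level of the 42 genes was 662, 697 and 742 CPM at 4 weeks and 186, 346 and 386 CPM at 8 weeks. Among the 8-week mice, mice 2 and 3 had more Cd3e and more of these transcripts than mouse 1. Among the 4-week mice the order was the other way, with the most Cd3e and the lowest sum in mouse 1. How much of the mitotic RNA came from leukocytes was not tested. With the mean level of T-cell, B-cell and macrophage markers as a covariate, 28 of the 42 were called lower, and with counts scaled to 12 endocrine genes 4 were. Leaving out the 4-week mouse 2 or 3 left 7 and 5, and leaving out the 8-week mouse 2 or 3 left 8 and 13.

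Because the mitosis genes moved together, the DNA around their transcription starts was searched for letters known from cell cycle promoters: TTTGAA, the core of the cell cycle genes homology region (CHR), CCAAT, the CCAAT box, and the E2F cores TTCCCGC and TTGGCGC. Windows from 250 bases before to 50 bases after the first RefSeq start listed for a gene (GRCm38.p6, the C57BL/6J reference and not the NOD genome) were at hand for 12076 of the genes tested and for 33 of the 42 mitosis genes, and both strands were read. TTTGAA stood in 24 of the 33 (72.7%), against 1473 of the 12076 windows (12.2%), and CCAAT in 23 (69.7%), against 38.0% of all windows. CCAAT was not particular to the mitosis genes. It stood in 19 of 31 windows of DNA replication genes (61.3%) and 10 of 11 of cholesterol synthesis genes (90.9%). Among all genes called lower it stood in 150 of 296 windows (50.7%), and among those called higher in 76 of 211 (36.0%). Of the mitosis genes with a window, 12 of 16 called lower and 12 of 17 not called held TTTGAA, so it was found at a similar rate in both. TTCCCGC stood in 1 of the 33 (3.03%), against 7.87% of all windows, but in 15 of 31 windows of DNA replication genes (48.4%), which held TTTGAA in 4 (12.9%). The other E2F core, TTGGCGC, stood in 4 of the 33 (12.1%) and in 7 of the 31 (22.6%), against 4.13% of all windows. Below are 120 bases before to 30 after the start for 4 called mitosis genes with TTTGAA in that stretch. They are examples chosen to show where the CHR core lies, not a complete ranking by p. Capitals mark TTTGAA and CCAAT on either strand, each sequence reads from 5′ to 3′ on the strand of its gene, and a match is a description of the letters, not a shown binding site.
Ect2: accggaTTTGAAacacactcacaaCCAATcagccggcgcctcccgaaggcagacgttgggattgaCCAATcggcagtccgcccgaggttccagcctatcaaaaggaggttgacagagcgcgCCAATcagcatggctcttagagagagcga
Anln: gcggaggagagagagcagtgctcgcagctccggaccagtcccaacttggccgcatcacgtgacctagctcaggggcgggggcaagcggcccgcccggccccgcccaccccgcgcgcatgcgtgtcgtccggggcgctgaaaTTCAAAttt
Cenpf: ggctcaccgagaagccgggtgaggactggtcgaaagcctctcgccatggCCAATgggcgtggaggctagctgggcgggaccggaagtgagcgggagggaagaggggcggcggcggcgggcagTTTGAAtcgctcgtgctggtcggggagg
Racgap1: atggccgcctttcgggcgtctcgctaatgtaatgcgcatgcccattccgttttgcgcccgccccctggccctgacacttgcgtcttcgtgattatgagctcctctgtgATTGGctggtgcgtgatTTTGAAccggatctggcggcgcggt
These stretches lie at chr3:27153849-27153998, chr9:22389177-22389326, chr1:189688057-189688206 and chr15:99651627-99651776 in the order printed, all on the minus strand. Ect2 holds 3 CCAAT boxes beside 1 CHR core, Cenpf and Racgap1 hold 1 of each, and Anln holds a CHR core alone.

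Genes of DNA replication fell as well, by less. Of 39 replication genes, all tested, 13 were called lower and 0 higher (median log2 fold change -0.64), and all 39 had a fold change below 0. Among all genes, 2.34% were called lower and 50.2% had a fold change below 0. Mcm2, a subunit of the replicative helicase (chr6:88883474-88898780), was at 34.2, 38.9 and 38.4 CPM at 4 weeks and at 14.8, 17.7 and 22.4 CPM at 8 weeks (log2 fold change -1.02, SE 0.16, adjusted p = 0.00988). Cdc45, which joins the helicase at the origin, was at 7.86, 8.85 and 9.26 against 3.03, 4.14 and 4.79 CPM (log2 fold change -1.12, adjusted p = 0.0146). Prim1, the primase subunit that lays the RNA primer, was at 14.0, 13.7 and 15.5 against 8.61, 8.74 and 9.07 CPM (log2 fold change -0.71, adjusted p = 0.0144). The ages did not overlap in any of these, nor in 34 of the 39, where 16.8% of all genes were lower without overlap. The chromatin assembly subunits Chaf1a and Chaf1b, the repair gene Brca1, the reductase subunit Rrm1, the flap nuclease Fen1 and the transcription factor E2f1 were among the others called. Pcna, the sliding clamp, had a log2 fold change of -0.48 (adjusted p = 0.0834), and Tk1 and Rrm2 overlapped between the ages (log2 fold change -0.17 in both). Among the 13 the count fell to 2, 0, 1 and 6 without the 4-week mouse 2, the 4-week mouse 3, the 8-week mouse 2 and the 8-week mouse 3, and to 0 when scaled to the endocrine genes. Of the 4 called replication genes with TTCCCGC around their start, the 3 that hold it within 120 bases before to 30 after it are printed with the E2F core in capitals. In Prim1 the last C of the core is also the first letter of a CCAAT.
Prim1: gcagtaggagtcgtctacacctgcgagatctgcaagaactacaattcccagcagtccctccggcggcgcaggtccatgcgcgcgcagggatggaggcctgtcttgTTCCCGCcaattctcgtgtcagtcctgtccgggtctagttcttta
Rrm1: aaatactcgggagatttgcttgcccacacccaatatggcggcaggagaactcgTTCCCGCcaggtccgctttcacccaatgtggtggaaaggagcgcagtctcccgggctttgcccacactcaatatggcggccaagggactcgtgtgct
Chaf1a: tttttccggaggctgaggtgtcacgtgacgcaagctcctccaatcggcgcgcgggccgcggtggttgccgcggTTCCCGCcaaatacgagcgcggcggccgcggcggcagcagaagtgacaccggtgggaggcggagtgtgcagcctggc
They lie at chr10:128015095-128015244, chr7:102441575-102441724 and chr17:56040296-56040445, all on the plus strand.

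**Figure D2:**
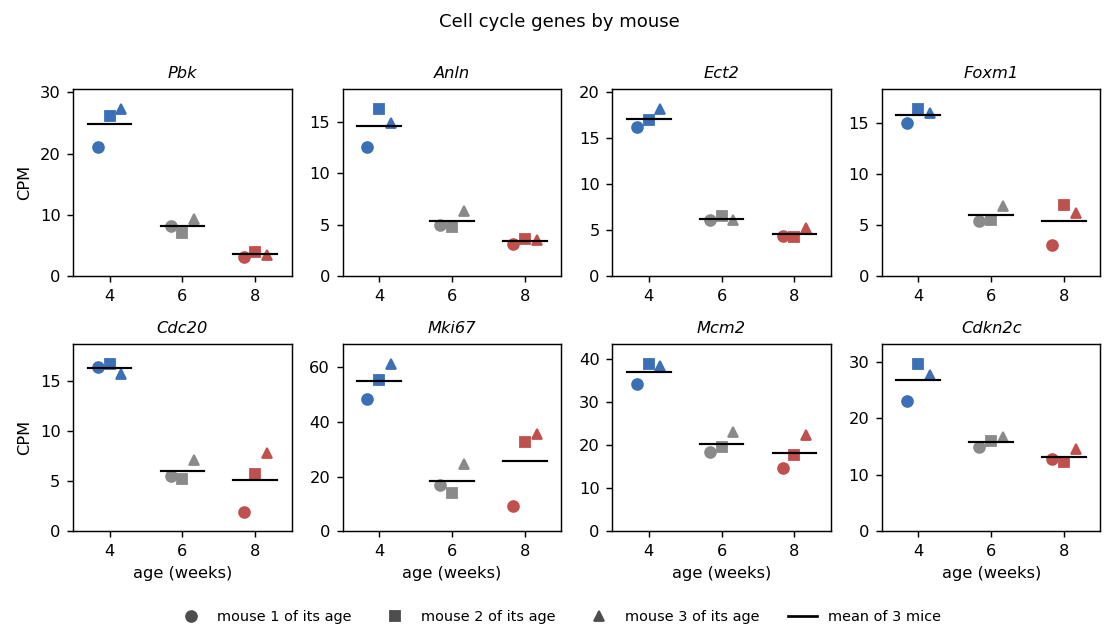
Levels of 8 cell cycle genes in CPM (y axes, from 0) in each mouse at 4, 6 and 8 weeks (x axes), with the mouse of each age shown by marker shape and the mean of 3 mice as a bar. In Pbk, Anln and Ect2 the 3 mice of 8 weeks lie together near the bottom, whereas in Cdc20 and Mki67 the 8-week mouse 1, at 1.97 and 9.27 CPM, lies well below the other two.

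Among 20 regulators of cell cycle entry, 2 were called lower and 1 higher, where 2.34% of all genes were called lower and 1.86% higher. Cdkn2c, an inhibitor of the kinases that open the cycle, was at 23.1, 29.6 and 27.7 CPM at 4 weeks and 12.9, 12.4 and 14.5 CPM at 8 weeks (log2 fold change -1.01, SE 0.15, adjusted p = 0.00736). No 8-week mouse reached the level of a 4-week mouse. Lockd, a long noncoding RNA made next to the inhibitor gene Cdkn1b, was at 3.71, 6.58 and 6.80 against 0.438, 0.749 and 0.964 CPM and had the most negative fold change of the genes the naming rule took (log2 fold change -2.98, SE 0.34, adjusted p = 0.00183). Cdkn1b itself was at 150, 156 and 149 against 155, 141 and 140 CPM (log2 fold change -0.06, adjusted p = 0.579). Ccne2, a cyclin of the entry into DNA synthesis, was called lower (log2 fold change -0.65, adjusted p = 0.0216), and Rbl2, a pocket protein of resting cells, was called higher (53.4, 53.1 and 49.8 against 60.1, 69.4 and 66.0 CPM, log2 fold change 0.32, adjusted p = 0.0316). Cdkn2c, Ccne2 and Rbl2 kept their calls in 14, 7 and 8 of 16 alternatives. With endocrine scaling or the leukocyte covariate 0 of the 20 were called. Without the 4-week mouse 2 or 3 or the 8-week mouse 2 or 3, 0 were called higher and 1 lower. Cdkn2a, Ccnd1, Ccnd2, Cdk4 and Rb1 were not called, with log2 fold changes between -0.98 for Cdkn2a and 0.07 for Ccnd1. The remaining genes among the 10 largest decreases were Nek2, Cdkn3, Cdc25c, Fam64a and Ckap2, which act in mitosis, and Ybx2 and Kbtbd6. Ybx2, a nucleic acid-binding protein best known from germ cells, was at 1.31, 1.80 and 1.45 against 0.328, 0.143 and 0.179 CPM (log2 fold change -2.79, adjusted p = 0.00638).

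The levels at 6 weeks place most of this fall in the first 2 weeks of the interval. The mean log2 level of the 42 mitosis genes was 3.58 ± 0.07 (SD, n = 3) at 4 weeks, 2.19 ± 0.26 at 6 weeks and 2.23 ± 0.70 at 8 weeks. Pbk averaged 24.9, 8.22 and 3.52 CPM at these ages and Mcm2 37.2, 20.4 and 18.3 CPM. Whether the step from 6 to 8 weeks differed from the step from 4 to 6 weeks was tested for every gene, and edgeR called 0 genes (0%) at an adjusted p under 0.05, with 1168 (7.06%) at an unadjusted p under 0.05 and 16 called by DESeq2. The shape of the course within the interval was therefore not resolved gene by gene at this number of mice.

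The course after 8 weeks differed from that before it for a small set of genes, of which 3 are on the mitosis list and 1 is on the replication list. In 15 genes (0.0906% of those tested) the change from 8 to 12 weeks differed from the change from 4 to 8 weeks at an adjusted p under 0.05, and in 14 of them (0.0846%) the later change was the higher, while 2802 (16.9%) passed an unadjusted p under 0.05. These 14 were Lockd, Nek2, Pbk, Anln, Kntc1, Ect2, Dlgap5, Mcm2, Wdhd1, Ube2s, Cnih2, Rpl18, Rpl39 and Rpl27-ps3. The 8-week mice enter both changes. Nek2, a centrosomal kinase, fell by 2.24 on the log2 scale to 8 weeks (12.7, 14.0 and 16.0 against 1.79, 3.39 and 3.86 CPM) and stood 1.03 higher at 12 than at 8 weeks, a difference of 3.28 (SE 0.54, adjusted p = 0.0452). Pbk changed by 0.35 after 8 weeks (adjusted p = 0.267), so there its difference of 3.17 (SE 0.44, adjusted p = 0.0312) rests on the earlier fall. The median log2 change of the 42 mitosis genes was -1.21 to 8 weeks and 1.01 from 8 to 12 weeks. Leaving out any of the mice of 4 weeks, the 8-week mouse 1 or 2, or the 12-week mouse 1 or 3 gave 0 calls, leaving out the 12-week mouse 2 gave 2, and leaving out the 8-week mouse 3 gave 50.

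B-cell genes rose in all 3 mice of 8 weeks, including the mouse with few T cells. Of 17 B-cell genes, all tested, 16 were called higher and none lower, where 1.86% of all genes were called higher, and the median log2 fold change was 5.49. Bank1, an adaptor protein of B-cell receptor signalling (chr3:136053363-136326066), was at 0.112, 0.0855 and 0.0362 CPM in the 4-week mice and at 3.14, 4.6 and 9.11 CPM in the 8-week mice (log2 fold change 6.11, SE 0.87, adjusted p = 0.0056, over the alternatives 2.93e-13 to 0.0495). Pax5, which fixes B-cell identity, was at 0.299, 0.0855 and 0 against 5.44, 4.88 and 12.3 CPM (log2 fold change 5.83, adjusted p = 0.00409). Cr2, the complement receptor of mature B cells, was at 0.0748, 0.128 and 0 against 4.23, 4.24 and 10.4 CPM (log2 fold change 6.52, adjusted p = 0.00715). Fcmr, Fcer2a, Blk, Cd79b, Ms4a1, Ighd and Cd22 were called with them, and in 16 of the 17 genes the ages did not overlap, where 11.3% of all genes were higher without overlap. Pax5 and Cr2 had no count in the 4-week mouse 3, so the size of their fold changes rests on few counts at 4 weeks. Cd79a differed, at 5.84, 7.65 and 4.52 CPM in the 4-week mice, against 13.9, 14.0 and 30.1 CPM at 8 weeks (log2 fold change 1.69, adjusted p = 0.0429), and Ebf1 was not called (log2 fold change 0.34, adjusted p = 0.396). Without the 4-week mouse 2 or 3, 9 and 6 of the 17 were called, and with the leukocyte covariate, which includes these genes, 8 were.

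Antibody transcripts rose with them. Ighm, the constant region of IgM (chr12:113418558-113422730), was at 23.7, 3.98 and 4.6 CPM at 4 weeks and at 164, 536 and 1157 CPM at 8 weeks (log2 fold change 5.84, SE 1.06, adjusted p = 0.0158). Igkc, the kappa constant region, was at 12.1, 1.03 and 1.92 against 110, 376 and 513 CPM (log2 fold change 6.04, adjusted p = 0.0146). Jchain, which joins secreted IgM and IgA, was at 5.43, 0.299 and 0.868 against 39.4, 130 and 214 CPM (log2 fold change 5.84, adjusted p = 0.0187). In all 3 the order of the 8-week mice was the same, with mouse 1 lowest and mouse 3 highest, and every 8-week mouse exceeded every 4-week mouse. Of 177 immunoglobulin and T-cell receptor gene segments tested, 20 were called higher, where 1.86% of all genes were. The filter on low counts ran over all 5 ages. A segment with almost no counts at 4 weeks could therefore enter the test through older mice, and had little room to be called lower. Reads of such segments can be shared between near-identical copies. Among 10 plasma-cell genes tested of 11 listed, Mzb1 was called higher with Jchain (1.01, 0.428 and 0.217 against 4.34, 10.3 and 21 CPM, log2 fold change 4.42, adjusted p = 0.0159), whereas Derl3 was called lower (20.7, 23.3 and 29.2 against 11, 9.70 and 10.6 CPM, log2 fold change -1.22, adjusted p = 0.00563). Derl3 encodes a factor of protein disposal from the endoplasmic reticulum. The switched constant region Ighg1 had 0 counts in all 3 mice of 4 weeks and 69, 43 and 79 counts at 8 weeks, at least 19.7-fold higher against a floor of 3 counts per library, and missed the threshold (adjusted p = 0.0569). The 2 plasma-cell increases fell to 0 without the 4-week mouse 2 or 3, to 1 without the 8-week mouse 2 or 3 and to 0 with the leukocyte covariate, where the list's median went from 4.26 to 0.97, and rose to 4 without the 4-week mouse 1 and 5 without the 8-week mouse 1. Jchain kept its call in 10 of 16 alternatives.

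T-cell genes did not separate the ages in this way, and the 4-week mouse 1 had more of nearly all of them than the 8-week mouse 1. Of 23 T-cell genes, all had a fold change above 0 and an unadjusted p under 0.05, where 25.3% of all genes passed that threshold and 14% passed it as higher, yet 1 was called, and the median log2 fold change was 2.85, turning to -1.34 with the leukocyte covariate, which is built from these genes among others. As higher at the unadjusted threshold, 10 passed with 2 ages alone, 13 with a replicate block, 17 with the exact test and 0 with the covariate. Without the 4-week mouse 2, the 4-week mouse 3, the 8-week mouse 2 and the 8-week mouse 3, 7, 7, 14 and 7 passed. Cd3e was at 4.12, 0.385 and 0.0724 CPM in the 4-week mice and at 0.730, 14.5 and 19.9 CPM in the 8-week mice (log2 fold change 2.92, SE 1.19, adjusted p = 0.149). Cd8a, of cytotoxic T cells, was at 3.26, 0.470 and 0.0362 against 0.547, 15.2 and 17.5 CPM (log2 fold change 3.13, adjusted p = 0.127), and Cd4, of helper T cells, at 7.75, 1.58 and 0.326 against 2.55, 28.7 and 46.1 CPM (log2 fold change 2.99, adjusted p = 0.11). In each the ages overlapped, since 8-week mouse 1 lay within the range of the 4-week mice. The gene that was called was Il7r, the interleukin 7 receptor, at 1.61, 1.45 and 0.398 against 1.86, 8.24 and 7.82 CPM (log2 fold change 2.38, SE 0.61, adjusted p = 0.0487). The 4-week mouse 1 exceeded the 8-week mouse 1 in 22 of the 23 T-cell genes and in 1 of the 17 B-cell genes, where this held for 54.9% of all genes tested. Without the 8-week mouse 1, all 23 T-cell genes were called higher, the median being 3.40, and without both it and the 4-week mouse 1 all 23 were, the median being 5.37. When the 4-week mouse 1 alone was left out 2 were called and the median was 4.84, and without the 4-week mouse 2 or 3 or the 8-week mouse 2 or 3 none was called.

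Macrophage, antigen-presentation and interferon genes were also mostly higher in the 4-week mouse 1 than in the 8-week mouse 1, in 16 of 19 macrophage, 10 of 11 MHC class II, 20 of 20 MHC class I and 29 of 32 interferon-stimulated genes. Of 19 macrophage genes in the table, 1 was called higher, where 1.86% of all genes were, and the median log2 fold change was 1.34. Lyz2, the myeloid lysozyme, was at 85.8, 22 and 11.6 CPM at 4 weeks and at 61.5, 273 and 403 CPM at 8 weeks (log2 fold change 2.62, SE 0.79, adjusted p = 0.0731). The gene called was Mrc1, the mannose receptor, which was higher in each 8-week mouse than in any 4-week mouse (2.17, 2.39 and 0.796 against 4.85, 8.02 and 7.28 CPM, log2 fold change 1.92, adjusted p = 0.043). Of 11 MHC class II genes, H2-Ob was called (1.98, 0.257 and 0.145 against 3.10, 9.73 and 18.4 CPM, log2 fold change 3.69, adjusted p = 0.0389). H2-Ob modulates peptide loading mainly in B cells. The invariant chain Cd74 was at 404, 117 and 57.5 against 196, 1156 and 1341 CPM (log2 fold change 2.22, adjusted p = 0.104). None of 32 interferon-stimulated genes was called by edgeR's quasi-likelihood test, with 10 at an unadjusted p under 0.05, 7 called higher by DESeq2 and 2 by the exact test. None of 20 MHC class I genes was called by these 3 tests, with 6 at an unadjusted p under 0.05. Among all genes 14% passed that threshold as higher. Without the 8-week mouse 1, 12 of the 19 macrophage, 10 of the 11 MHC class II, 15 of the 32 interferon-stimulated and 4 of the 20 MHC class I genes were called higher, and without both it and the 4-week mouse 1 these counts were 16, 11, 26 and 18. They were 3, 6, 1 and 0 without the 4-week mouse 1 alone, and without the 4-week mouse 2 or 3 or the 8-week mouse 2 or 3 none was called. NOD mice carry other MHC alleles than the reference genome to which reads were assigned, and genes of this family are close paralogs. With the leukocyte covariate, which includes the macrophage genes, the median log2 fold changes turned from 1.34 to -0.55 for macrophage, from 2.19 to -0.93 for MHC class II, from 1.26 to -0.83 for interferon-stimulated and from 0.96 to -1 for MHC class I genes, with 1, 1, 4 and 2 genes called lower.

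**Figure D3:**
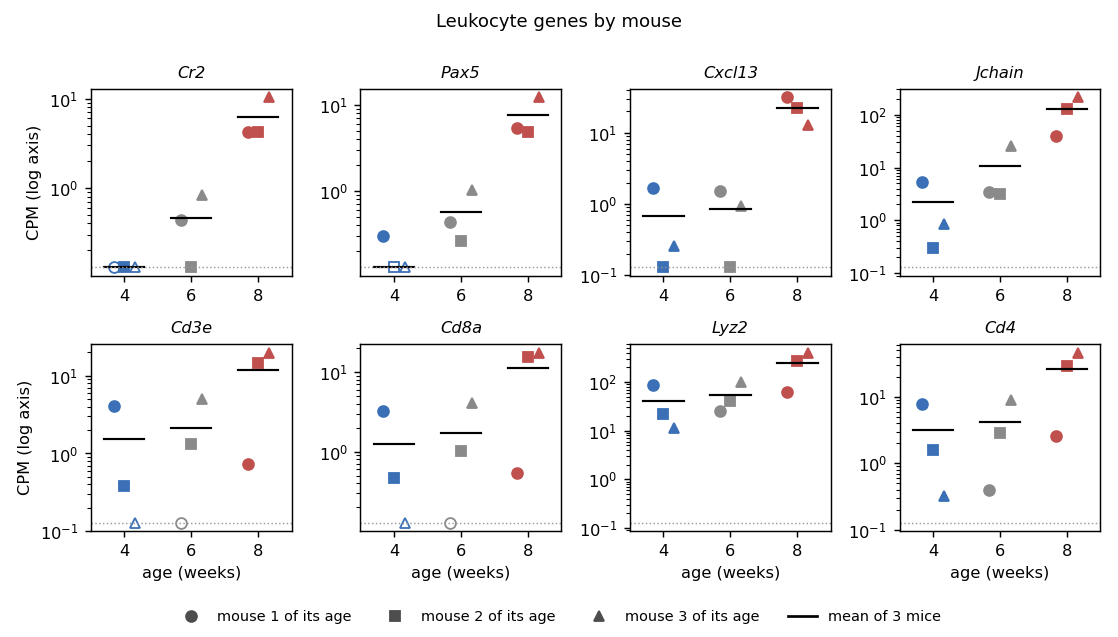
Levels of 8 leukocyte genes in CPM (y axes, log axis) in each mouse at 4, 6 and 8 weeks (x axes), with the mouse of each age shown by marker shape, the mean of 3 mice as a bar, and values under 3 counts drawn as open symbols at the dotted floor of 0.128 CPM. For Cr2, Pax5, Cxcl13 and Jchain all 3 mice of 8 weeks lie above all 3 of 4 weeks, whereas for Cd3e, Cd8a, Lyz2 and Cd4 the 8-week mouse 1 lies among the 4-week mice.

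Some genes that organise lymphoid tissue rose. Of 23 such genes, all tested, 6 were called higher and 0 lower, where 1.86% of all genes were called higher, and the median log2 fold change was 2.84. Cxcl13, the chemokine that draws B cells into follicles, was at 1.68, 0.128 and 0.253 CPM at 4 weeks and at 31.6, 22.4 and 12.8 CPM at 8 weeks (log2 fold change 4.98, SE 0.73, adjusted p = 0.00638, over the alternatives 1.2e-06 to 0.0508). Here the 8-week mouse 1 was the highest of its age, unlike in the lymphocyte genes, where it was mostly the lowest. Selp, the adhesion receptor P-selectin, was at 0.599, 0.214 and 0.109 against 1.5, 4.6 and 3.75 CPM (log2 fold change 3.40, adjusted p = 0.0215). Lta, the lymphotoxin that induces lymphoid organs, was at 0.262, 0.171 and 0 against 0.511, 1.53 and 1.96 CPM (log2 fold change 3.19, adjusted p = 0.0351). Cxcr5, the receptor of Cxcl13, was called too, with a log2 fold change of 3.98. Glycam1, a mucin-like protein made in specialised lymphoid vessels, had 1, 1 and 0 counts at 4 weeks and 2, 113 and 882 counts at 8 weeks (adjusted p = 0.0426). Its rise rests on mice 2 and 3, and 6 of the 14 alternatives in which it was tested kept the call. Chst4, a sulphotransferase of the same vessels, had 0 counts in 4 of the 6 mice and 17 and 49 counts in 8-week mice 2 and 3 (adjusted p = 0.07). Ccl21a and Ltbr had log2 fold changes of -0.22 and 0.01 and were not called. With the leukocyte covariate 1 was called higher and 2 lower, and the median turned to -0.34. Without the 8-week mouse 1, 16 of the 23 genes were called, and without the 4-week mouse 2 or 3 or the 8-week mouse 2 or 3, 1, 0, 1 and 1.

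Of 18 cytokine genes tested of 22 listed, 2 were called higher (1.86% of all genes were), against 8 without the 8-week mouse 1, 12 without both it and the 4-week mouse 1, and 6 with DESeq2. With the leukocyte covariate 0 were, and their median turned from 1.49 to -0.58. Il33, an alarmin of stromal cells, was at 2.02, 0.385 and 0.470 against 2.12, 11.1 and 15 CPM (log2 fold change 3.27, adjusted p = 0.0389), and Il16 at 3.26, 1.37 and 0.543 against 3.54, 15.4 and 18.7 CPM (log2 fold change 2.86, adjusted p = 0.0395). In both the 8-week mouse 1 lay just above the highest 4-week mouse, and neither was called without the 4-week mouse 2 or 3 or the 8-week mouse 2 or 3. Ifng, the interferon of T cells, was at 0.861, 0.171 and 0 against 0.182, 3.07 and 2.79 CPM (log2 fold change 2.53, SE 1.21, adjusted p = 0.211). Il1b, Tnf and Ccl2 had log2 fold changes of 1.53, 1.46 and 1.11 and adjusted p of 0.0974, 0.324 and 0.241, and all overlapped between the ages. Among the largest increases were also Il9r, the interleukin 9 receptor, with 1, 0 and 0 counts at 4 weeks and 1.31, 1.32 and 3.18 CPM at 8 weeks (adjusted p = 0.00528), and Slpi, an inhibitor of leukocyte proteases, at 0.187, 0 and 0.0362 against 1.46, 8.38 and 12.0 CPM (log2 fold change 6.49, adjusted p = 0.0144). In both, each mouse of 8 weeks exceeded all 3 of 4 weeks.

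**Figure D4:**
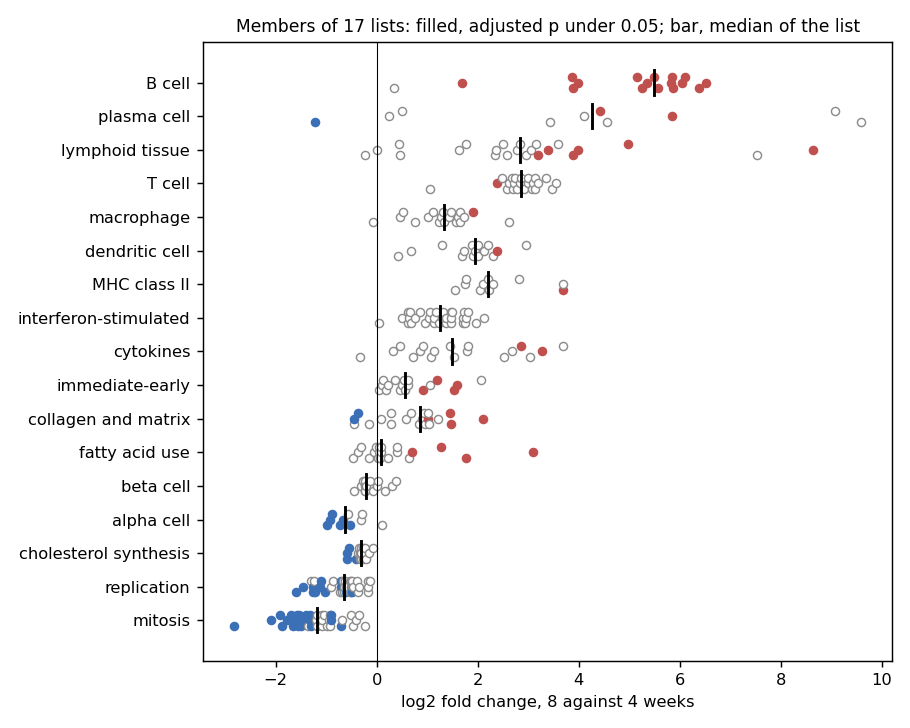
Log2 fold changes of 8 against 4 weeks (x axis) for the tested members of 17 gene lists (y axis), with filled symbols for genes at an adjusted p under 0.05 and a bar at the median of each list. B-cell genes lie around 5.49 and are nearly all filled, T-cell genes lie around 2.85 with 1 filled, and the mitosis genes lie around -1.21 with 22 filled.

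Among the endocrine genes, several of alpha cells fell and none of the beta-cell list was called by edgeR at the usual scaling. Of 10 alpha-cell genes, 6 were called lower and 0 higher (median log2 fold change -0.62), and of 16 beta-cell genes 0 were called, with a median of -0.20 and with 1 called higher when scaled to the endocrine genes and 1 called lower by DESeq2. Of all genes, 2.34% were called lower by edgeR. Gcg, the glucagon precursor and the 1 called of 8 hormone genes (chr2:62474530-62483650), was at 46361, 51732 and 48784 CPM at 4 weeks and at 34783, 29481 and 28125 CPM at 8 weeks (log2 fold change -0.67, SE 0.14, adjusted p = 0.027, over the alternatives 5.86e-06 to 0.225). Gc, a vitamin D-binding protein made by alpha cells in the islet, was at 138, 142 and 163 against 83.1, 73.6 and 69.2 CPM (log2 fold change -0.98, SE 0.17, adjusted p = 0.0136). Ttr, the carrier transthyretin, was at 1236, 1320 and 1544 against 802, 722 and 631 CPM (log2 fold change -0.93, adjusted p = 0.0364). In these 3 genes all 8-week mice, mouse 1 included, lay below all 4-week mice. The transcription factors Irx1 and Irx2 and the lipid receptor Gpr119 were called lower, with log2 fold changes of -0.89, -0.72 and -0.67.

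The insulin genes were not called, and 8-week mice 2 and 3 lay below all 4-week mice in both, while the 8-week mouse 1 lay just below them in Ins1 and within their range in Ins2. Ins1 was at 73276, 76247 and 78018 CPM at 4 weeks and at 71438, 51044 and 57204 CPM at 8 weeks (log2 fold change -0.34, SE 0.17, adjusted p = 0.218). Ins2 was at 146657, 172274 and 162818 against 168696, 125135 and 118064 CPM (log2 fold change -0.23, SE 0.19, adjusted p = 0.498). The insulin genes are close paralogs, between which reads can be split with error. The other hormones Sst and Ppy had log2 fold changes of -0.20 and -0.79 and adjusted p of 0.511 and 0.127. Pdx1, Mafa, Nkx6-1 and Slc2a2, which define mature beta cells, had log2 fold changes of -0.27, -0.31, 0.00 and -0.08 and adjusted p between 0.296 and 0.999. These values are shares of each library, and 8-week mice 2 and 3 held more leukocyte RNA. With the leukocyte covariate 0 of the 10 alpha-cell genes were called, their median was -0.41, and the beta-cell median turned to 0.14. Scaled to 12 endocrine genes, which moved the median of all genes by 0.28, 1 of the 10 was called, the alpha-cell median was -0.34 and the beta-cell median turned to 0.07. Without the 4-week mouse 2, the 4-week mouse 3, the 8-week mouse 2 and the 8-week mouse 3, 1, 0, 0 and 3 alpha-cell genes were called. Without the 8-week mouse 1, Ins1 was called lower (log2 fold change -0.49, adjusted p = 0.0483, over all alternatives 0.0483 to 0.942).

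**Figure D5:**
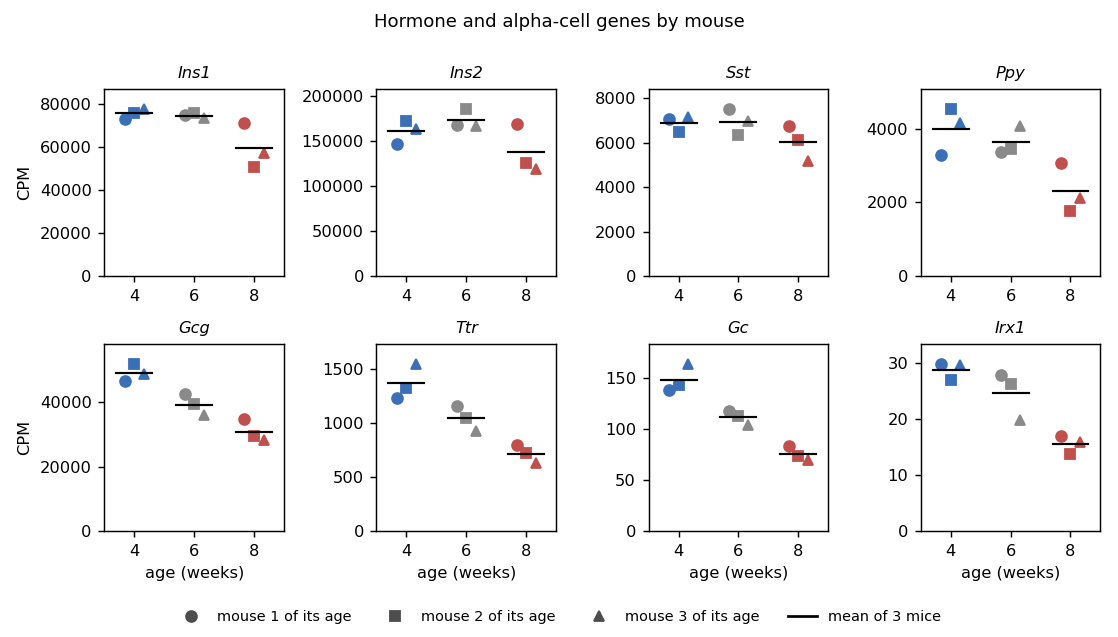
Levels of 5 hormone genes and 3 alpha-cell genes in CPM (y axes, from 0) in each mouse at 4, 6 and 8 weeks (x axes), with the mouse of each age shown by marker shape and the mean of 3 mice as a bar. Gcg, Ttr, Gc and Irx1 step down at each age with no overlap between 4 and 8 weeks, whereas the 8-week mouse 1 lies near the 4-week mice for Ins1 and Ins2.

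Some immediate-early genes, which switch on within minutes of a stimulus, rose. Of 18 such genes, 4 were called higher, 12 were higher without overlap, and the median log2 fold change was 0.56. Of all genes, 1.86% were called higher and 11.3% were higher without overlap. Atf3, a stress-induced transcription factor, was at 1.91, 1.41 and 0.905 CPM at 4 weeks and at 4.23, 4.67 and 3.82 CPM at 8 weeks (log2 fold change 1.59, SE 0.29, adjusted p = 0.0159, over the alternatives 5.95e-05 to 0.198). Zfp36, which destabilises cytokine mRNA, was at 32.4, 27.4 and 27.6 against 54.8, 65.8 and 80.2 CPM (log2 fold change 1.2, adjusted p = 0.0215), and Junb at 42.2, 47.6 and 49.2 against 79.4, 85.8 and 96.4 CPM (log2 fold change 0.91, adjusted p = 0.0215). Fosb was at 2.66, 4.45 and 3.15 against 11, 10.0 and 8.36 CPM (log2 fold change 1.52, adjusted p = 0.0313). The 8-week mouse 1 lay above every 4-week mouse in all 4 genes. Which cells this RNA came from was not tested. Fos, Jun, Egr1 and Nr4a1 had log2 fold changes of 0.57, 0.51, 0.54 and 0.19 and were not called. Without the 4-week mouse 2 or 3 or the 8-week mouse 2, 0 of the 18 were called, without the 8-week mouse 3, 1, and without the 8-week mouse 1, 7, and with the leukocyte covariate 0 were.

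Several fibroblast genes rose and a pair of basement membrane collagens fell. Of 20 collagen and matrix genes, 4 were called higher and 2 lower, and of 13 mesenchyme and pericyte genes 3 were called higher. Among all genes 1.86% were called higher and 2.34% lower. Dcn, the matrix proteoglycan decorin, was at 30.8, 18.1 and 11.8 CPM at 4 weeks and at 71.0, 99.3 and 92.0 CPM at 8 weeks (log2 fold change 2.11, SE 0.41, adjusted p = 0.0187). Lum, Col14a1 and Fn1 rose with it, with log2 fold changes of 1.46, 1.02 and 1.47, as did Dpt (11.8, 8.81 and 5.03 against 25, 36.0 and 49.9 CPM, log2 fold change 2.11, adjusted p = 0.0142), Gsn and Pdgfra, the receptor that marks fibroblasts. In Dcn and Dpt every 8-week mouse exceeded every 4-week mouse by a wide margin. Col4a1 and Col4a2, which form the basement membrane around islet vessels, were lower, with Col4a2 at 303, 325 and 320 against 221, 229 and 245 CPM (log2 fold change -0.45, SE 0.07, adjusted p = 0.00863). The pair lie head to head in the genome. None of 13 endothelial genes was called by edgeR, and their log2 fold changes ran from -0.16 to 0.19. Pericyte genes were not called either (Rgs5 -0.16, Pdgfrb 0.21). With the leukocyte covariate 0 of the 20 matrix genes were called, and without the 4-week mouse 2 or 3 or the 8-week mouse 2 or 3 none of the 4 increases was, against 2 without the 4-week mouse 1 and 10 without the 8-week mouse 1. The 2 decreases fell to 0 with library totals, with endocrine scaling, and without the 4-week mouse 3 or the 8-week mouse 2. They fell to 1 without the 4-week mouse 1 or 2 or the 8-week mouse 3. Both stayed with DESeq2 and without the 8-week mouse 1. The 3 mesenchyme calls fell to 0 without the 4-week mouse 2 or 3 and to 1 without the 8-week mouse 2 or 3, rose to 5 without the 8-week mouse 1, and were 0 with the leukocyte covariate, where the median turned from 0.81 to -0.28.

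Metabolic genes moved in both directions. Of 20 genes of fatty acid use, edgeR's quasi-likelihood test called 4 higher and 0 lower, where DESeq2 and the exact test each called 1 lower. Among all genes the quasi-likelihood test called 1.86% higher and 2.34% lower. Angptl4, a fasting-induced inhibitor of lipoprotein lipase, was at 0.337, 0.770 and 0.253 CPM at 4 weeks and at 4.56, 2.39 and 4.5 CPM at 8 weeks (log2 fold change 3.09, SE 0.39, adjusted p = 0.00329), and was called under all 16 alternatives. Cd36, a fatty acid transporter, was at 3.18, 2.95 and 2.13 against 7.51, 7.02 and 5.54 CPM (log2 fold change 1.28, adjusted p = 0.024). Plin2, the coat of lipid droplets, was called as well (log2 fold change 0.69, adjusted p = 0.0367). Every 8-week mouse exceeded every 4-week mouse in Angptl4 and Cd36. Of 18 cholesterol synthesis genes, all had a fold change below 0, as had 50.2% of all genes, and 4 were called lower, Hmgcs1, Fdps, Idi1 and Sqle. Hmgcs1, the synthase at the entry of the pathway, was at 112, 104 and 146 against 83.2, 77.2 and 80.0 CPM (log2 fold change -0.59, SE 0.11, adjusted p = 0.0157). When scaled to the endocrine genes, 0 of the 18 were called and 2 of the fatty acid genes still were, and without the 4-week mouse 3 or the 8-week mouse 2 the 4 cholesterol calls fell to 0. The cholesterol calls were 2 without the 4-week mouse 2 or the 8-week mouse 3. With the leukocyte covariate 0 of the 18 were called, and 5 were lower at an unadjusted p under 0.05. The 4 fatty acid calls fell to 1 without the 4-week mouse 2, the 4-week mouse 3 or the 8-week mouse 2, to 2 without the 8-week mouse 3, and to 1 with the leukocyte covariate.

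Of 24 genes of the unfolded protein response, 2 were called lower, the chaperone cofactors Creld2 (146, 137 and 157 against 96.6, 99.0 and 82.3 CPM, log2 fold change -0.66, SE 0.10, adjusted p = 0.00863) and Sdf2l1 (206, 182 and 218 against 132, 127 and 126 CPM, log2 fold change -0.66, adjusted p = 0.0213). Among all genes 2.34% were called lower. Without the 4-week mouse 2, the 4-week mouse 3, the 8-week mouse 2 and the 8-week mouse 3, 1, 0, 1 and 1 of the 24 were called. With endocrine scaling or the leukocyte covariate 0 of the 24 were. At 6 weeks both were already below their 4-week values, when Creld2 was at 84.5, 72.0 and 64.7 CPM. The sensors and transcription factors of the response, Ern1, Eif2ak3, Atf6, Xbp1 and Atf4, had log2 fold changes between -0.09 and 0.10 and were not called. Igf1, the growth factor, was called higher (4.38, 3.80 and 3.04 against 6.31, 13.4 and 16.7 CPM, log2 fold change 1.70, adjusted p = 0.0376), and of 15 fetal growth and imprinted genes tested, 3 were called lower. Among these, Igf2bp2, an RNA-binding protein of growing tissues, was at 9.95, 14.0 and 11.5 against 8.21, 7.02 and 7.64 CPM (log2 fold change -0.63, adjusted p = 0.0291), and Ndn, an imprinted growth regulator, was at 78.7, 76.6 and 83.7 against 62.1, 59.9 and 57.0 CPM (log2 fold change -0.42, adjusted p = 0.0425). The 3 calls fell to 0 without the 4-week mouse 2, the 4-week mouse 3 or the 8-week mouse 2, to 1 without the 8-week mouse 3, and to 0 with endocrine scaling or the leukocyte covariate. Igf1, Igf2bp2 and Ndn kept their calls in 7, 7 and 6 of 16 alternatives. None of 18 genes of beta-cell maturation was called by edgeR's quasi-likelihood test, while DESeq2 called 1 higher and 2 lower and the exact test 1 lower, and their median log2 fold change was 0.02.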

How the data were processed

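Polyadenylated RNA of islets from NOD females was sequenced, 1 library per mouse and 3 mice at each of 5 ages. The authors mapped reads with CLC Genomics Workbench and deposited raw read counts per gene together with TPM values. Per the submitters' processing notes the build was mm10, whether counting used strand is not given in the sources used here, and the 30 deposited RPKM and CPM columns of these libraries were not used. Groups and replicate numbers came from the labels, which name no batch. Counts of 16554 of 48709 genes that passed filterByExpr were fitted with edgeR 4.0.16 (R 4.3.3) after TMM scaling, with a mean per age over all 15 libraries, a quasi-likelihood test and Benjamini-Hochberg adjustment over all genes tested. The contrasts were 8 against 4 weeks, the change from 8 to 12 minus that from 4 to 8 weeks, and the step from 6 to 8 minus that from 4 to 6 weeks. P-values judge a difference between ages against the spread between mice of an age, estimated over all 5 ages together. For genes without a count, 3 counts served as the floor. The scripts were tested on simulated data. Named genes were the 10 largest increases and the 10 largest decreases among called genes with no overlap and a mean of at least 20 counts in the higher group, leaving out numbered gene models and receptor segments, the 5 largest per direction between intervals, the leading and defining members of 42 lists, and genes the study names. The ages, the lists and these rules were chosen with earlier results of these data known. Alternatives were DESeq2 1.42.0, other scalings, no filter, 2 ages alone, an exact test, a leukocyte covariate, a replicate block and each mouse left out. Promoter windows came from RefSeq tables and were searched with Python 3.11.15. Some genes that these rules take are not reported here.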

Additional observations from a re-analysis of the deposited data

Results flagged for a closer look

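In 15 genes the change from 8 to 12 weeks differed from the change from 4 to 8 weeks by edgeR's test of the difference itself. Among those the naming rule took, the later log2 change exceeded the earlier one by 3.74 in Lockd, 3.28 in Nek2, 3.17 in Pbk, 2.80 in Anln and 2.55 in Kntc1, with adjusted p of 0.0452, 0.0452, 0.0312, 0.0189 and 0.0452. Kntc1, a checkpoint protein of the kinetochore, fell by 1.83 on the log2 scale to 8 weeks and stood 0.72 higher at 12 than at 8 weeks. Both changes use the same 8-week mice.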

How the results depend on the processing

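The count of 695 genes called between 8 and 4 weeks became 196 with scaling to endocrine genes (87.2% higher, against 44.3%), 235 with only those ages, 2010 with DESeq2 (60.8% higher), 157 with the leukocyte covariate (15.9% higher) and 2037 without 4-week mouse 1 and 8-week mouse 1 (77.4% higher). With library totals 76.2% of 747 calls were higher, and with the exact test 56.3% of 830. Leaving out 1 mouse gave 46 to 1963. The 2098 genes at the 1.5-fold threshold became 1182 with the covariate (23.3% higher, against 76.2%) and 1433 to 2582 with 1 mouse left out. The 15 genes that differed between intervals became 5 with library totals, 0 with endocrine scaling, 7 with no filter, 6 with only the ages of the contrast, 763 with DESeq2, 795 with the covariate and 0 to 50 with 1 mouse left out. The 0 genes that differed between the steps became 1 with library totals, 16 with DESeq2, 1 with the covariate and 0 to 3 with 1 mouse left out. Beyond the construction of each alternative, the cause was not tested. The median of all genes moved to 0.11 with library totals and 0.28 with endocrine scaling.

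Replicate numbers were not treated as pairs. Same-numbered mice of 4 and 8 weeks deviated from the mean of their age with correlations of -0.74, -0.18 and -0.49. With 3 mice centred on their own mean, such correlations cannot show whether mice of 2 ages were processed together. With a replicate block 213 genes were called, 212 of them among the 695, and 0 differed between intervals. Over 3172 values of named genes under the alternatives, 2535 kept direction and call, 376 lost a call, 181 gained one and 80 values without a call changed sign. With 3 mice per age, of which 1 per age stood apart, calls of low genes and of leukocyte genes rest on few animals.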

Other observations

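Hemoglobin genes fell. Hbb-bt was at 18.7, 21.5 and 21.2 CPM at 4 weeks and at 5.73, 8.91 and 8.14 CPM at 8 weeks (log2 fold change -1.43, SE 0.20, edgeR adjusted p = 0.0056). Hbb-bs and Hba-a1 fell with it, with log2 fold changes of -1.24 and -1.18, and these genes have close paralogs between which reads can be split. Without the 4-week mouse 2 or 3, 1 of these 3 calls was left. Alas2, which starts heme synthesis in red cell precursors, was at 2.47, 2.61 and 2.03 against 1.02, 1.14 and 1 CPM (adjusted p = 0.0569). Msln, a surface protein of mesothelium, fell from 138, 179 and 130 to 44.3, 41.3 and 52.8 CPM (log2 fold change -1.69, SE 0.25, adjusted p = 0.00638), while Wt1, another mesothelial gene, was at or near the floor at 4 weeks and at 0.766, 0.392 and 0.143 CPM at 8 weeks.

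None of 8 Schwann and neural genes was called by edgeR, 6 were higher at 8 weeks without overlap, and 6, not all of them the same genes, passed an unadjusted p under 0.05. Of all genes, 11.3% were higher without overlap and 14% passed that threshold as higher. Sox10, the transcription factor of Schwann cells, was at 3.33, 4.32 and 3.26 against 5, 4.78 and 6.36 CPM (adjusted p = 0.144). Ikzf2, a transcription factor on the checkpoint and regulatory T list, was called just under the threshold (9.06, 9.79 and 9.19 against 11.6, 22.2 and 22.5 CPM, log2 fold change 1, adjusted p = 0.05). The call was kept in 5 of 16 alternatives (adjusted p from 0.00381 to 0.806). Its level was alike in 4-week mice 1 to 3, whose Cd3e was at 5.75, 0.498 and 0.0961 TPM. Which cells its RNA came from was not tested.

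Acinar genes varied widely between mice of an age. Cela1, an elastase, was at 167, 1377 and 179 CPM in the 4-week mice and at 664, 320 and 184 CPM in the 8-week mice, highest in the 4-week mouse 2 and then in the 8-week mouse 1. None of 18 acinar genes was called, and their median of -0.30 changed sign without the 4-week mouse 2 or the 8-week mouse 3.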
